A study of Mus musculus with 4 samples.

Results

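The glutamate transporters and the enzyme that closes the glutamine cycle were followed in sorted cells of the mouse dorsal neural tube. They are 7 of the 24421 genes in the expression table, taken by gene symbol alone: the vesicular transporters Slc17a6, Slc17a7 and Slc17a8, the plasma membrane transporters Slc1a1, Slc1a2 and Slc1a3, and Glul, which encodes glutamine synthetase. RNA-seq had been made from GFP+ cells sorted from neural tubes of E11.5 mouse embryos that were heterozygous (Prdm13 GFP/+) or homozygous (Prdm13 GFP/GFP) for an allele carrying GFP and a stop codon in the first exon of Prdm13, a transcriptional repressor of the dorsal neural tube. GFP therefore marks cells that switched on the Prdm13 locus in both genotypes, and the heterozygous controls also carry 1 mutant copy. Homozygous cells carry GFP on both copies, so GFP dose differs with genotype, and its part in which cells were sorted was not tested. The mice came from a mixed ICR and C57Bl/6 background in which founder strains had been interbred. RNA of several embryos was combined into 1 pool per genotype and 2 libraries were made from each pool, so every test compares pools, and its error is technical. The comparison asks how gene expression in these cells differs when PRDM13 is lost. Prdm13 itself does not check the labels, because reads of the disrupted transcript still count, and it was at 114 and 127 RPKM (reads scaled by exon length and library size) in the heterozygote and 310 and 324 RPKM in the homozygote.

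Glutamate is the main excitatory transmitter of the spinal cord. Neurons load it into synaptic vesicles with vesicular transporters, and plasma membrane transporters driven by the sodium gradient take it back up after release, largely into glia and, before birth, radial glia. Glutamine synthetase turns the recovered glutamate into glutamine, and glutamine transporters pass it back to neurons, which remake glutamate from it. In the dorsal neural tube, excitatory interneurons use Slc17a6, whereas the inhibitory interneurons load GABA and glycine with Slc32a1 instead.

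Of the 7 genes, 4 rose in Prdm13 GFP/GFP cells, Slc1a3, Slc17a6, Slc17a7 and Slc1a2, and 0 were called lower. The 4 belong to both transporter classes, but the vesicular sum rose 3.91-fold and the plasma membrane sum 1.80-fold. In sorted pools such as these, more cells of a type and more RNA per cell cannot be told apart. Calls needed a 1.5-fold change and a limma adjusted p under 0.05. They were made over the 12046 genes that averaged 1 RPKM or more in either genotype. Of those genes 6.33% were called, 3.65% higher and 2.67% lower. The filter kept 5 of the 7 genes. Slc17a7 entered only through its Prdm13 GFP/GFP mean, and Slc17a8 and Slc1a1 stayed below it. When voom in limma was instead run on recovered whole reads of 13564 genes with at least 10 reads in 2 libraries, a choice made after the values were seen, all 7 were tested and the same 4 were called higher, beside 4.11% of genes, and 0 lower. At an unadjusted p under 0.05, limma put 5 of its 5 genes higher, Glul included, and voom on the 13564 genes put 5 higher and 1, Slc1a1, lower. The share of all genes at this unadjusted limit was not computed. In limma, 19.7% of the genes tested reached an adjusted p under 0.05 whatever the fold, which Glul did not. Voom on the genes of the main filter also called these 4 higher, beside 3.74% of genes. Slc17a6, Slc17a7 and Slc1a3 are also among the genes that the study singled out from these same libraries, so their direction is not independent of that choice. With no filter at all, 24421 genes entered the test, the calls over all genes dropped to 30 higher and 14 lower, and 0 of the 7 passed, with limma adjusted p of 0.0619 for Slc17a6, 0.0704 for Slc17a7, 0.0600 for Slc1a2 and 0.0552 for Slc1a3 at unchanged fold changes.

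The promoters of the 4 genes that rose are shown because regulators acting with Prdm13 in these cells, such as Ptf1a, are basic helix-loop-helix factors that bind E-boxes, written CANNTG. Each line gives the 250 bases before the RefSeq start on GRCm38.p6, 5′ to 3′ on the strand of the gene, with every CANNTG match in capitals. CANNTG reads the same on both strands. The paper describes the motif of the activating PTF1A complex as an E-box together with a TC-box, and TC-boxes were not marked here.
Slc17a6 chr7:51621580-51621829 (+ strand): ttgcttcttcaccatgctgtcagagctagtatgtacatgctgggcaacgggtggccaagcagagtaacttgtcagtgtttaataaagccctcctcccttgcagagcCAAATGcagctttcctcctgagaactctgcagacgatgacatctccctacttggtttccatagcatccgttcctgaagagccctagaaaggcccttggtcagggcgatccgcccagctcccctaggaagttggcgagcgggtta
Slc17a7 chr7:45163671-45163920 (+ strand): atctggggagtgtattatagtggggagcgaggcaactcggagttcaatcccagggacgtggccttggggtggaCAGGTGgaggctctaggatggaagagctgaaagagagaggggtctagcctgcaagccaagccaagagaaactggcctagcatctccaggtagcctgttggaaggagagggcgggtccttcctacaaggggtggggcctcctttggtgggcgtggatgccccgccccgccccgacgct
Slc1a2 chr2:102706188-102706437 (+ strand): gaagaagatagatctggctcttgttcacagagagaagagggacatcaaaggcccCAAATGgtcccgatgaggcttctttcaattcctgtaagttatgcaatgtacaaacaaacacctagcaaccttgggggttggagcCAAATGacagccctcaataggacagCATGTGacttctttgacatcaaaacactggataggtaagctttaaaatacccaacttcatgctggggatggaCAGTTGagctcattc
Slc1a3 chr15:8710808-8711057 (minus strand): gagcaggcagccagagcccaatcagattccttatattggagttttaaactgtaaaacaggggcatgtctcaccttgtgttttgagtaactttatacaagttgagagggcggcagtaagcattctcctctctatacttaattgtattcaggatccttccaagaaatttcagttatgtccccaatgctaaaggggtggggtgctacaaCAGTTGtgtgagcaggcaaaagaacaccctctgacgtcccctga

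The Slc17a6 window held 1 match, CAAATG, 138 bases before the start, and the Slc17a7 window 1, CAGGTG, 171 bases before it. A window at a further Slc17a6 start, chr7:51624387-51624636, held 2 (CAGATG and CATATG). Slc1a3 also held 1, CAGTTG, 38 bases before the start. Slc1a2 held 4, of which the nearest lay 9 bases before the start, and its window falls inside the span that RefSeq gives the gene, which has starts farther upstream. Glul, which was not called, held 2 (CAAATG and CAGCTG), Slc1a1 held 0, and the windows at 2 starts of Slc17a8 held 1 and 2. Of 18134 promoters of genes in the table, 63.1% held at least 1 CANNTG, with a median of 1, so that a match in this window is common. CAGCTG, a subset of CANNTG, was found in 12.3% of these promoters and, of the 7 genes, in Glul alone. Of the 9054 promoters of genes tested, 55.2% held at least 1 CANNTG. The paper reports PRDM13 binding largely at sites distal to gene starts, which these windows do not cover. It marks Slc1a3 as a gene with an associated PRDM13 ChIP-seq peak, and lists Slc17a6 and Slc17a7 without that mark.

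Glul and Slc1a2 were the most abundant of the 7 genes in both genotypes. Because RPKM is scaled per length, levels can be set side by side between genes. In Prdm13 GFP/+ cells the order of mean RPKM was Glul at 47.9 ± 0.815 (SD, n = 2 libraries here and throughout), Slc1a2 at 26.1 ± 0.449, Slc17a6 at 3.55 ± 0.355, Slc1a3 at 2.69 ± 0.175, Slc17a7 at 0.731 ± 0.0886, Slc1a1 at 0.672 ± 0.0278 and Slc17a8 at 0.171 ± 0.0332. The same order held in Prdm13 GFP/GFP cells, and the libraries of neighbours in it did not overlap in either genotype, except those of Slc17a7 and Slc1a1 in the heterozygote. The step from Slc1a2 down to Slc17a6 narrowed from 7.34-fold to 2.78-fold.

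**Figure D1:**
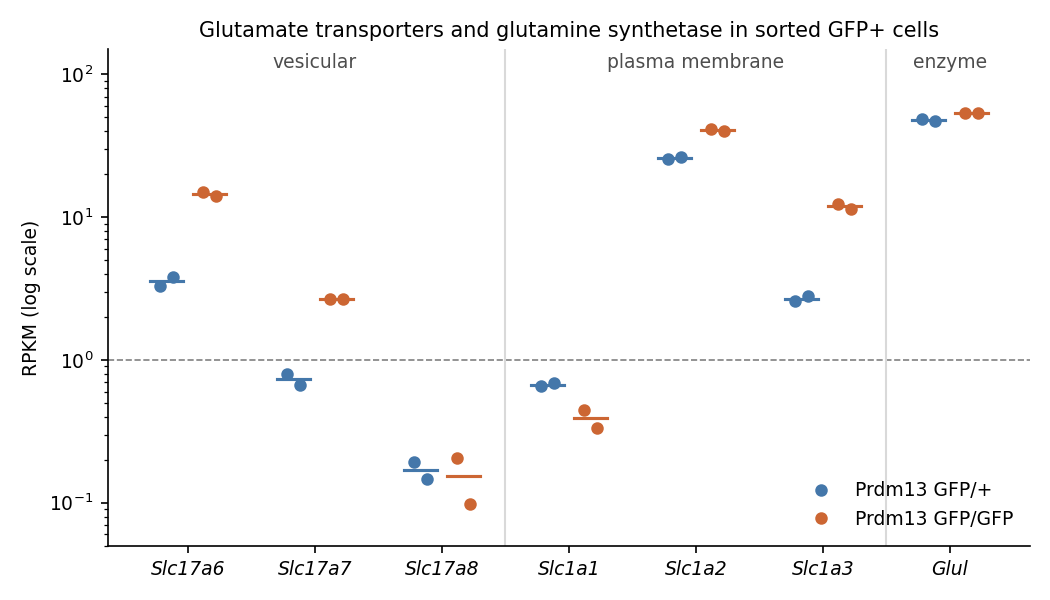
RPKM on a log axis of the 7 genes in each library, with a dot per library and a bar at the mean of the 2 libraries of a genotype; the dashed line marks 1 RPKM, the level of the filter. Slc17a6, Slc17a7, Slc1a2 and Slc1a3 sit higher in both Prdm13 GFP/GFP libraries, Glul hardly moves, Slc1a1 sits lower, and the Slc17a8 libraries overlap.

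Among the vesicular transporters, Slc17a6 (VGLUT2, gene 140919, chr7:51621830-51671126), which most glutamatergic neurons of the spinal cord use, carried most of the signal. Its RPKM was 3.30 and 3.80 in the Prdm13 GFP/+ libraries and 15.1 and 14.1 in the Prdm13 GFP/GFP libraries, from 165, 301, 1061 and 833 recovered reads. Both homozygous libraries lay far above both heterozygous ones. Slc17a6 rose 4.11-fold, a difference of 2.01 on log2(RPKM + 0.1) with a standard error of 0.0896, a 95% interval of 1.80 to 2.23 and a limma adjusted p of 3.78e-05. Only 0.606% of the genes tested had a larger rise.

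Slc17a7 (VGLUT1, gene 72961, chr7:45163921-45176139), better known as the vesicular transporter of cortical neurons and of proprioceptive and mechanoreceptive sensory neurons, was far less abundant. It was at 0.794 and 0.668 RPKM in Prdm13 GFP/+ cells and at 2.66 and 2.66 RPKM in Prdm13 GFP/GFP cells, from 27, 36, 127 and 107 reads. The genotypes did not overlap. Slc17a7 rose 3.64-fold, or 1.74 on log2(RPKM + 0.1) with a standard error of 0.179, a 95% interval of 1.31 to 2.16 and a limma adjusted p of 0.00152. At these low levels the size depends on the pseudocount, and with 1 in place of 0.1 the difference was 1.08, still called.

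Slc17a8 (VGLUT3, gene 216227, chr10:89574020-89621249), the vesicular transporter of scattered neurons that often release a second transmitter, was near the limit of these libraries. It was at 0.194 and 0.147 RPKM in Prdm13 GFP/+ cells and at 0.207 and 0.0985 RPKM in Prdm13 GFP/GFP cells, from 10, 12, 15 and 6 reads. The libraries of the genotypes overlapped, and the highest and the lowest values were both homozygous. A difference in Slc17a8 was not detectable at this depth (voom on the 13564 genes, log2 difference -0.16, adjusted p = 0.836).

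Slc17a6 and Slc17a7 rose by similar factors, so their ratio hardly moved. Slc17a6 was 4.92 ± 1.08 times Slc17a7 in Prdm13 GFP/+ cells and 5.49 ± 0.274 times in Prdm13 GFP/GFP cells, and the libraries overlapped. Slc17a6 made up 79.7 ± 3.80% of the vesicular RPKM in the heterozygote and 83.8 ± 0.305% in the homozygote.

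Among the plasma membrane transporters, Slc1a3 (GLAST, gene 20512, chr15:8634124-8710807), the transporter of radial glia and later of astrocytes, had the largest fold of the 7 genes. Its RPKM was 2.57 and 2.82 in the Prdm13 GFP/+ libraries and 12.4 and 11.4 in the Prdm13 GFP/GFP libraries, from 125, 217, 849 and 658 reads. The genotypes were well apart. Slc1a3 rose 4.43-fold, or 2.11 on log2(RPKM + 0.1) with a standard error of 0.0864, a 95% interval of 1.90 to 2.31 and a limma adjusted p of 2.77e-05. A larger rise was seen in 0.548% of the genes tested.

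Slc1a2 (GLT1, gene 20511, chr2:102658239-102790784), which becomes the main glutamate uptake carrier of the mature brain, was already the dominant plasma membrane transporter in the controls. It was at 25.7 and 26.4 RPKM in Prdm13 GFP/+ cells and at 41.2 and 39.8 RPKM in Prdm13 GFP/GFP cells, from 3596 to 8090 reads in a library. The genotypes did not overlap. Slc1a2 rose 1.55-fold, just past the fold needed for a call, with a log2 difference of 0.63, a standard error of 0.0502, a 95% interval of 0.51 to 0.75 and a limma adjusted p of 0.000491. Its interval reaches below the limit of 0.58, and it does not overlap the intervals of Slc1a3, Slc17a6 or Slc17a7.

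Slc1a1 (gene 20510, chr19:28835135-28913960), the neuronal carrier that also takes up cysteine, went the other way in its values. It was at 0.653 and 0.692 RPKM in Prdm13 GFP/+ cells and at 0.448 and 0.335 RPKM in Prdm13 GFP/GFP cells, from 28, 47, 27 and 17 reads. Both homozygous libraries lay below both heterozygous ones, as they did for 30.3% of the genes tested. Slc1a1 was under the filter, and in voom on the 13564 genes its log2 difference of -0.77 did not pass (adjusted p = 0.0519).

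The make-up of the plasma membrane class therefore shifted. Slc1a2 accounted for 88.6 ± 0.436% of its summed RPKM in Prdm13 GFP/+ cells and 76.7 ± 0.679% in Prdm13 GFP/GFP cells, while the share of Slc1a3 went from 9.14 ± 0.393% to 22.6 ± 0.553%. The ratio of Slc1a2 to Slc1a3 went from 9.70 ± 0.464 to 3.40 ± 0.113. Slc17a6 and Slc1a3, a neuronal and a glial gene, kept nearly the same ratio to each other, 1.32 ± 0.0462 in the heterozygote and 1.22 ± 0.0112 in the homozygote, though the libraries did not overlap.

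Glul (gene 14645, chr1:153899929-153909723) was high in all libraries and moved little. It was at 48.5 and 47.4 RPKM in Prdm13 GFP/+ cells and at 53.6 and 53.3 RPKM in Prdm13 GFP/GFP cells, from 1576 to 2446 reads. Both homozygous libraries lay above both heterozygous ones, which was so for 31.7% of the genes tested. The difference in Glul was 1.12-fold, or 0.16 on the log2 scale with a standard error of 0.0458, a 95% interval of 0.05 to 0.27 and a limma adjusted p of 0.0572. Voom on the genes of the main filter gave an adjusted p of 0.0240 for Glul at the same size, well short of the fold needed for a call.

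Set against each other, the vesicular class grew more than the plasma membrane class. The summed vesicular RPKM was 4.29 and 4.62 in Prdm13 GFP/+ cells and 18.0 and 16.9 in Prdm13 GFP/GFP cells, and the summed plasma membrane RPKM was 29.0 and 29.9, then 54.1 and 51.6. Plasma membrane transporters exceeded vesicular ones in all 4 libraries. Their ratio was 6.76 and 6.47 in the heterozygote and 3.01 and 3.06 in the homozygote, 6.61 ± 0.200 against 3.04 ± 0.0357, a difference of -1.12 on the log2 scale that was much larger than the spread between libraries. No p is given for the ratio, since it is a score over genes chosen with results known, and an exact permutation test of 2 against 2 libraries cannot go below p = 0.333. The size rests on summing, in which Slc17a6 and Slc1a2 dominate. When each class was averaged over its 3 genes on log2(RPKM + 0.1) instead, so that Slc17a8 and Slc1a1 weigh as much as the others, the difference was -0.51.

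**Figure D2:**
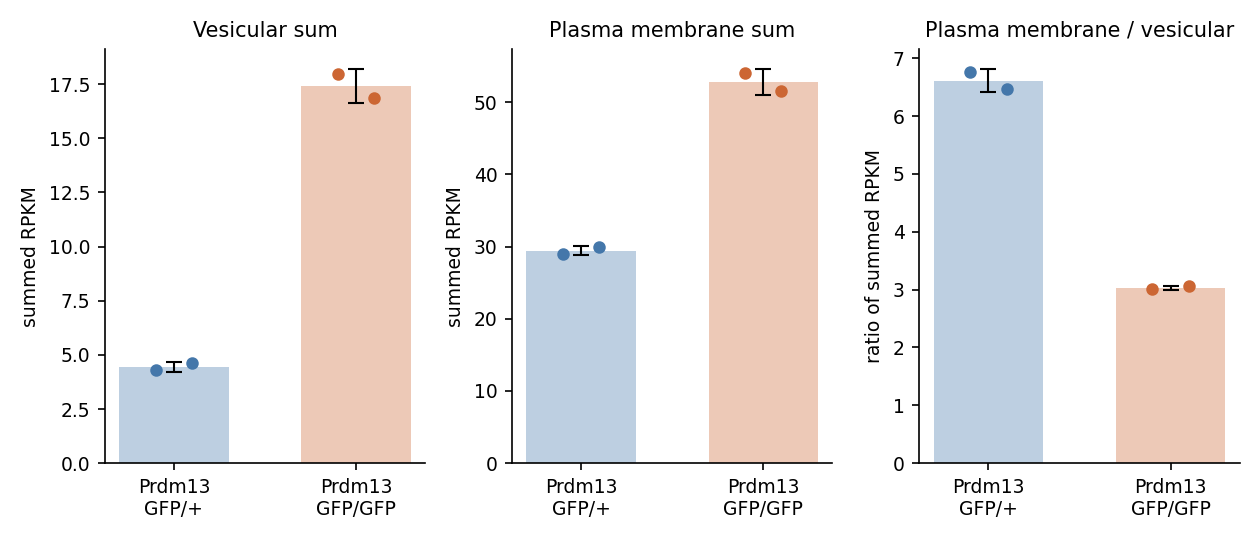
Summed RPKM of the 3 vesicular transporters, summed RPKM of the 3 plasma membrane transporters, and the ratio of the latter to the former, with a bar at the mean, error bars of 1 SD and a dot per library (n = 2 per genotype). Both sums are higher in Prdm13 GFP/GFP cells, and the ratio is lower, 3.04 against 6.61.

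The other vesicular transporter of these cells, Slc32a1, which loads GABA and glycine, moved against Slc17a6 and Slc17a7. Slc32a1 was at 34.3 and 36.6 RPKM in the Prdm13 GFP/+ libraries and at 6.05 and 6.65 RPKM in the Prdm13 GFP/GFP libraries, a log2 difference of -2.46 with a limma adjusted p of 7.31e-06. Summed vesicular glutamate transporters stood at 0.126 ± 0.000616 of Slc32a1 in the heterozygote and at 2.75 ± 0.306 of it in the homozygote. Vesicular glutamate transporters were thus below Slc32a1 in both heterozygous libraries and above it in both homozygous ones.

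Genes whose values ran most like those of Slc17a6 across the 4 libraries were, by the Euclidean distance of centred log2(RPKM + 0.1) values, Slc1a3 (distance 0.108), Frzb (0.109) and Parm1 (0.126). For Slc1a3 they were Frzb (0.0689), Slc17a6 (0.108) and Sel1l3 (0.117). Frzb, a secreted inhibitor of Wnt signalling, was at 9.20 and 9.81 RPKM in the heterozygote and 40.9 and 39.9 RPKM in the homozygote. With 2 pools the likeness is mainly that of the fold between genotypes.

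The other genes of the pathway were described by 7 further lists (other Slc1 and Slc17 genes, glutamate enzymes, glutamine transporters, mitochondrial glutamate and aspartate carriers, cystine exchange, and transporter partners). Of their 37 genes 25 passed the filter, of which 0 were called higher and 3 lower, beside 3.65% and 2.67% of all genes tested. Their median log2 difference was -0.09 beside 0.01 over all genes tested. Counting every fold, 3 of the 25 rose and 8 fell at an adjusted p under 0.05, which 19.7% of all genes reached. At an unadjusted p under 0.05 these were also 3 and 8. Voom on the genes of the main filter called 0 higher and 3 lower, and at an unadjusted p under 0.05 it gave 3 and 10. Slc17a1, Slc17a2 and Slc17a3, the phosphate and urate carriers of kidney and liver, were listed at 0 in all 4 libraries, and Slc17a5, the lysosomal sialic acid carrier, was at 3.11 to 3.32 RPKM with a log2 difference of 0.03 (limma adjusted p = 0.840).

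The 3 genes that fell handle other amino acids around glutamate. Psat1, a step of serine synthesis that uses glutamate as its amino donor, was at 77.1 and 72.8 RPKM in Prdm13 GFP/+ cells and at 44.4 and 43.2 RPKM in Prdm13 GFP/GFP cells. Psat1 fell by 0.77 on the log2 scale (limma adjusted p = 0.00023). Slc1a4, the relative of Slc1a2 and Slc1a3 that carries alanine, serine and cysteine rather than glutamate, was at 15.1 and 16.6 RPKM and then at 10.1 and 10.1 RPKM. Slc1a4 fell by 0.64 (limma adjusted p = 0.0016), and without the second heterozygous library its difference was -0.57, short of the fold for a call. Slc6a15, a neuronal carrier of branched-chain amino acids and proline, was at 2.16 and 2.23 RPKM and then at 1.33 and 1.46 RPKM. Slc6a15 fell by 0.62 (limma adjusted p = 0.0328), and leaving out any 1 of the libraries ended this call, with adjusted p between 0.0883 and 0.111.

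**Figure D3:**
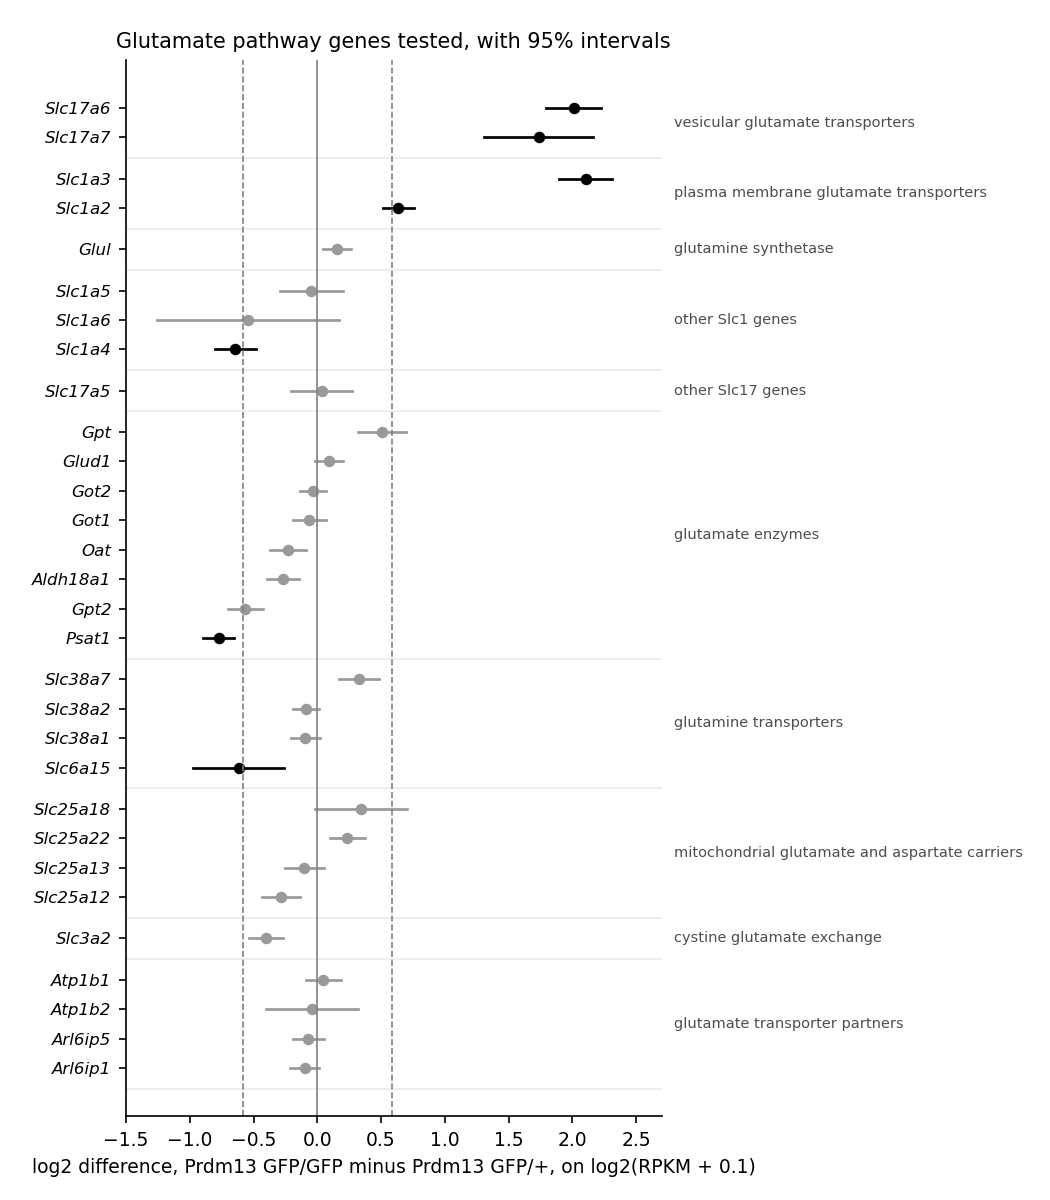
Log2 difference on log2(RPKM + 0.1), Prdm13 GFP/GFP minus Prdm13 GFP/+, with 95% intervals from limma, for the genes of each list that passed the filter; black marks genes called and grey those not called, and dashed lines mark 1.5-fold. The 4 transporters called higher stand to the right, Glul and most other genes lie near 0, and Slc1a4, Psat1 and Slc6a15 are called lower.

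Of the 8 tested enzymes that make or consume glutamate, Psat1 included, 4 were lower and 1 was higher at an adjusted p under 0.05. Gpt2, the mitochondrial alanine aminotransferase, fell by 0.56 on the log2 scale (limma adjusted p = 0.00138), while its cytosolic counterpart Gpt rose by 0.51 (adjusted p = 0.00739). Neither passed the fold, though Gpt2 was called without the second heterozygous library (log2 difference -0.59) and Gpt without the first homozygous library (0.59). The enzymes of proline and ornithine metabolism, Aldh18a1 and Oat, fell by 0.27 and 0.23. Glud1, the glutamate dehydrogenase, had a log2 difference of 0.09 (adjusted p = 0.220).

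Carriers of the glutamine transporter list ranged from abundant to barely detected, and 4 of 7 were tested. Slc6a15 is among them, though it was named above as a carrier of branched-chain amino acids and proline. Slc38a1 and Slc38a2, which move glutamine across the plasma membrane, lay at 47.0 to 50.8 and 92.9 to 100 RPKM, each with a log2 difference of -0.09 that did not pass. The lysosomal glutamine carrier Slc38a7 rose by 0.33 (limma adjusted p = 0.0185). Slc38a3, the glutamine carrier of mature astrocytes, was at 0.790 to 1.00 RPKM and was not tested. Of the mitochondrial carriers, Slc25a22, which brings glutamate into the matrix, rose by 0.23 and Slc25a12, an aspartate and glutamate exchanger, fell by 0.29, both short of the fold.

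The cystine and glutamate exchanger is built from Slc7a11 and Slc3a2. Slc3a2, the heavy chain shared with other amino acid carriers, fell by 0.40 on the log2 scale (limma adjusted p = 0.00472), short of the fold. Slc7a11 was at 0.777 and 0.728 RPKM in the heterozygote and 0.340 and 0.269 RPKM in the homozygote, below the filter, and was called lower only in voom on genes with at least 10 reads.

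Markers of cell types in the sorted samples also differed between the genotypes. All 6 dorsal excitatory markers, among them Tlx3, Lmx1b and Pou4f1, were called higher, beside 3.65% of all genes tested. Their summed RPKM went from 27.1 to 29.5 in Prdm13 GFP/+ libraries to 180 to 187 in Prdm13 GFP/GFP libraries. Tlx1 entered the filter only through its Prdm13 GFP/GFP mean. All 8 dorsal inhibitory markers, among them Pax2, Gad1 and Slc32a1, were called lower, beside 2.67% of all genes tested. Their sum went from 523 to 561 to 99.5 to 106. Apart from Prrxl1, these excitatory and inhibitory markers are among the genes that the study singled out from these same libraries. Their direction is therefore not independent of that choice. Pan-neuronal markers summed to 1664 to 1710 and then to 2022 to 2104, with 1 of 8 called higher (Stmn2) and 1 lower (Snap25). Tubb3 carried most of that sum, at 1017 and 1062 RPKM and then at 1265 and 1372 RPKM. Tubb3, Stmn2, Elavl3 and Elavl4 were higher in both homozygous libraries, Dcx, Map2 and Snap25 were lower, and Rbfox3 overlapped. The part of these shifts in the rise of Slc17a6 and Slc17a7 was not tested.

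The glial lists were set beside Slc1a3 and Slc1a2 because glutamate uptake is largely glial, not because their values ran alike. Of 14 radial glia and progenitor markers tested, 1 was called higher (Ttyh1, log2 difference 1.13) and 0 lower, beside 3.65% and 2.67% of all genes tested. The list summed to 2448 to 2455 RPKM in the heterozygote and 2449 to 2538 RPKM in the homozygote. Vim and Fabp7 carried most of that sum, and neither passed the test. At an adjusted p under 0.05 the list was split, with Ttyh1, Hes5 (0.42) and Pax6 (0.26) higher and Sox2 (-0.48), Nfib (-0.52) and Hes1 (-0.29) lower. Of 9 astrocyte markers, 3 passed the filter and 1, Kcnj10, was called lower, and the sum was 89.8 to 91.0 and then 87.7 to 88.6 RPKM, nearly all of it from Gja1 (log2 difference -0.48) and Fgfr3 (0.33), which radial glia also express. Gfap, Aqp4, Gjb6 and S100b were at or near 0 in every library, none above 0.111 RPKM. In the oligodendrocyte list Olig1 and Olig2, which are also factors of ventral progenitors, rose from at or near 0 to 10.7 to 21.3 RPKM, whereas Sox10, Pdgfra and Cspg4 stayed under 1 RPKM in all libraries. The part of glial cells in the rise of Slc1a3 and Slc1a2 was not tested.

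Sensory ganglion neurons also use Slc17a6 and Slc17a7. Of 3 such markers tested, 2 were called higher (Ntrk3 and Prdm12), while Ntrk2 fell by 0.46 on the log2 scale (limma adjusted p = 0.00382), short of the fold. Over all genes tested, 3.65% were called higher and 2.67% lower. The list summed to 17.1 to 18.3 RPKM and then to 30.4 to 32.5 RPKM, and most of the difference came from Prdm12, at 0.594 and 0.596 RPKM and then at 13.4 and 15.4 RPKM. Prdm12 entered the filter only through its Prdm13 GFP/GFP mean. By in situ hybridization, the paper found Prdm12 expressed ectopically within the dorsal neural tube of Prdm13 mutants. Avil, Isl2, Prph and Scn10a were each under 1 RPKM in every library. Of these, Avil was higher in both homozygous libraries, and Isl2, Prph and Scn10a overlapped. In the motor neuron list 1 of 7 genes passed the filter and was called higher, Isl1, which dorsal interneurons also express, and the sum went from 3.33 to 3.42 to 8.54 to 8.90 RPKM. Isl1 alone accounts for that difference, since Chat, Slc18a3, Slc5a7 and Lhx3, all under 1 RPKM, were lower in both homozygous libraries. Neural crest and Schwann precursor markers had 1 of 4 called higher (Ngfr) and 1 lower (Foxd3), with sums of 665 to 735 and then 666 to 676 RPKM, nearly all of it from Fabp7, which radial glia share. The part of such cells in the transporter values was not tested.

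Microglial markers summed to at most 0.291 RPKM in any library, mesenchymal markers to 4.72 to 5.05 RPKM in the heterozygote and 3.40 to 3.58 RPKM in the homozygote, and endothelial markers to 48.4 to 54.2 and then 38.3 to 42.5 RPKM, with 0 called in any of these lists by limma, or by voom on the same genes. Few of their genes could be called, since 0 microglial, 1 mesenchymal and 2 endothelial genes passed the filter. Nearly all of the endothelial sum came from Slc2a1, at 46.3 and 51.3 and then 35.6 and 39.4 RPKM. Slc2a1 fell by 0.38 (limma adjusted p = 0.0153), short of the fold. Pecam1, Cdh5 and Kdr, each under 1 RPKM in every library, overlapped between genotypes, as did Cldn5. Tek, also under 1 RPKM, was lower in both homozygous libraries. In voom the mesenchymal gene was lower at an unadjusted p under 0.05. Voom on the 13564 genes called 1 of 5 mesenchymal genes lower. Erythroid markers summed to 30.8 to 31.4 and then 33.1 to 34.5 RPKM, with 0 of 2 called and 0 at an unadjusted p under 0.05. All 3 floor and roof plate markers tested fell, Msx1 and Wnt1 past the fold and Ntn1 by 0.54 (limma adjusted p = 0.00136), short of it. Over all genes tested, 2.67% were called lower. Wnt1 entered the filter only through its Prdm13 GFP/+ mean. The untested genes of this list were each under 1 RPKM in every library. Of these, Shh and Lmx1a were higher in both homozygous libraries, and Foxa2 and Gdf7 overlapped. Voom on the 13564 genes put 1 of 4 higher and 3 lower at an unadjusted p under 0.05. Of the 4 genes of the Prdm13 lineage, Ptf1a and Prdm13 itself rose and Gsx2 and Lbx1 fell.

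Recovered reads came to between 12339385 and 19620033 a library. The 2 libraries of a genotype differed by a median of 0.0783 (Prdm13 GFP/+) and 0.0776 (Prdm13 GFP/GFP) in absolute log2 value per gene. In each library 11774 to 11831 genes had at least 1 RPKM.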

How the data were processed

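GFP+ cells of E11.5 Prdm13 GFP/+ and Prdm13 GFP/GFP neural tubes were profiled by RNA-seq in 2 technical libraries from 1 RNA pool per genotype. The authors aligned reads to mm10 with TopHat2 2.1.0, counted reads on RefSeq exons with featureCounts, applied TMM scaling in edgeR 3.6.8 and deposited RPKM values for 24421 genes. Group and replicate came from the submitters' labels. ChIP-seq data were not analysed here.

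The 12046 genes averaging 1 RPKM or more in a genotype entered a linear model of log2(RPKM + 0.1) in limma 3.58.1 (R 4.3.3; eBayes with a trend). Two-sided p-values were adjusted by Benjamini-Hochberg over all 12046, and calls needed an adjusted p under 0.05 with a 1.5-fold change. These differences understate changes of low genes. Folds in the text are ratios of mean RPKM. The test was tried on simulated libraries of 11891 genes, where it called 88 of 93 genes changed 2-fold, 107 of 107 changed 4-fold and 25 unchanged genes. The changed genes were drawn only from those above a minimum mean of reads. The spread between simulated libraries was a set value, not one estimated from these data.

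Whole reads were recovered from the RPKM steps, to within a share of 1e-06 of each value, for 99.98% of 19200 genes above 0, and 71.5% of 18448 solved exon lengths lay within 5% of annotation. The effective library sizes were 0.924 to 0.938 of the summed reads. Reads cover counting error only.

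The members and all lists were chosen with earlier results of these data known. The results of 5 listed genes are not reported here, and these genes were later left out of the lists. Named genes were the 7 members, pathway genes with an adjusted p under 0.05, at most 3 called markers per list, and the 3 nearest profiles of Slc17a6 and Slc1a3; the remaining genes named were chosen after their values were seen. Promoters and coordinates are from RefSeq GRCm38.p6. Alternatives were pseudocounts of 1 and 0.01, no filter, 1 RPKM in both libraries of a genotype, median ratio and quantile scaling, eBayes without a trend, a replicate block, voom on recovered reads and leaving out each library. Python 3.11.15, numpy 2.4.6, pandas 2.3.3 and matplotlib 3.10.9 were used.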

Additional observations from a re-analysis of the deposited data

How the results depend on the processing

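Slc17a6, Slc17a7, Slc1a2 and Slc1a3 were called higher, and 0 members lower, under every alternative but the absence of a filter, where 0 were called and the direction held. Their log2 differences ranged over 1.78 to 2.11, 1.08 to 1.88, 0.60 to 0.66 and 1.81 to 2.17. Leaving out each library in turn kept 4 members called higher. For the pathway lists, 0 were called lower in place of 3 without a filter, 2 in each leave-one-out fit, and 0 to 1 (Gpt) higher. Slc6a15 was also lost with a pseudocount of 1. Over all genes, 440 were called higher and 322 lower, against 30 and 14 without a filter; the cause was not tested. Without the second heterozygous library 64.3% of calls were higher, against 57.7%, and in the other leave-one-out fits 53.0 to 59.8%. The class difference was -1.12 by summed RPKM, -1.14 after quantile scaling, -1.15 to -1.09 without single libraries and -0.51 by mean log2 values. Replicate numbers did not pair the libraries (correlation of their deviations between genotypes 0.0475). With the replicate block 4 members were called higher and 0 lower, 3 pathway genes were called lower and 0 higher, and 459 and 342 of all genes. The libraries are technical, so differences between embryos are not part of any error. At 6 to 47 reads, Slc17a8 and Slc1a1 can show only large differences.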
